A study of Mus musculus with 3 samples.

Results

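Cadherins and Epcam are cell adhesion molecules of the cell surface, and 7 of their genes, out of 27998 genes listed, are described here in single lung cells of MMTV-HER2/Neu mice. The genes were chosen by name: Cdh1, Epcam and Cdh3, which are known from epithelium, Cdh5 and Cdh13, known from blood vessels, and Cdh2 and Cdh11, known from mesenchymal and neural cells. All 7 were found by symbol. The mice were on an FvB background and carried HER2/Neu under the mouse mammary tumour virus (MMTV) promoter, which is active mainly in mammary epithelium, so every group shares the transgene and none is a wild type. The late HER2-positive library holds CD45-negative, HER2-positive lung cells of mice older than 20 weeks with primary tumours, and the early HER2-positive library holds cells sorted the same way from mice of 14 to 18 weeks without a palpable tumour. The early HER2-negative library holds CD45-negative, HER2-negative lung cells of mice of 14 to 18 weeks without a palpable tumour. The submitters label the HER2-positive cells as breast cancer cells and the HER2-negative cells as non-cancer lung cells. Each group is 1 library, and the number of animals behind it is not given in the sources used here. Stage, age, sort and animal therefore cannot be told apart from library, no test between groups was possible, and the 95% intervals below cover counting error only.

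Classical cadherins bind the same cadherin on a neighbouring cell and anchor it to actin through beta-catenin, plakoglobin, p120-catenin and alpha-catenin. Cdh1 (E-cadherin) holds epithelial sheets together, Cdh3 (P-cadherin) is known from myoepithelium and other basal epithelia, Cdh2 (N-cadherin) from neurons, muscle and pericytes, and Cdh11 (OB-cadherin) from fibroblasts and osteoblasts. Cdh5 (VE-cadherin) is the classical cadherin of endothelial junctions, whereas Cdh13 (T-cadherin) is held in the membrane by a lipid anchor and binds adiponectin. Epcam is not a cadherin: it is a single-pass epithelial glycoprotein that associates with claudin-7 and tetraspanins, is cut by gamma-secretase, and is widely used to capture carcinoma cells.

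Cdh1 (chr8:106603351-106670246, plus strand), Cdh3 (chr8:106510891-106557297, plus), Cdh5 (chr8:104101625-104144511, plus), Cdh13 (chr8:118283733-119324921, plus) and Cdh11 (chr8:102632095-102785642, minus) all lie on chromosome 8 of GRCm38/mm10, and Epcam (chr17:87635979-87651129, plus) lies on chromosome 17. Of the 7 genes, 1 matched an entry of the RefSeq promoter table for GRCm38.p6. It is Epcam, the member with the highest ratio of mammary-like over AT2-like cells of the late library, so the 250 bases before its start (chr17:87635729-87635978, plus strand) are shown. Capitals mark the E-box CAGGTG and its reverse complement CACCTG, the letters bound by the Snail and Zeb repressors of epithelial genes.
Epcam: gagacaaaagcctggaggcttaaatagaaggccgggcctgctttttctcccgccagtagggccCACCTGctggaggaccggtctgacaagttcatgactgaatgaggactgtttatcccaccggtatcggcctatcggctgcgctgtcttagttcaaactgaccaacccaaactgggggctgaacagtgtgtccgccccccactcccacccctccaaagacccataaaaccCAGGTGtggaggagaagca
The matches begin 187 and 19 bases before the start. At least 1 such match was found in 5657 of 32851 promoters of the same length (17.2%), and 2 or more in 678 (2.06%). No other motif was searched, and a match is a description of the letters only.

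The libraries held 54961019 (late HER2-positive), 49248126 (early HER2-positive) and 25610135 (early HER2-negative) unique molecular identifiers (UMIs, each standing for 1 captured transcript), and 89.96% to 92.9% of them lay in kept cells. Kept cells numbered 6012, 7622 and 6416 in the same order, with medians of 8075, 5319 and 3166 UMIs, and between 10 and 18 cell barcodes were shared by any pair of libraries. Cells were put into classes by a few genes each, and every named class had all of its other markers at 50 CPM or more (UMIs of the gene per 1000000 UMIs of the class). A mammary-like class (milk protein genes Csn3 and Wfdc18) had 161 cells in the late HER2-positive library and 0 in both early libraries, which allows a share of up to 0.0394% of early HER2-positive and 0.0468% of early HER2-negative cells. The label of breast cancer cells is thus not matched by most HER2-positive cells: type 2 pneumocyte-like (AT2-like) cells made up 3996 of 6012 late and 3939 of 7622 early HER2-positive cells. Endothelial-like cells numbered 474, 1496 and 5169 in the late HER2-positive, early HER2-positive and early HER2-negative libraries, mural-like cells (pericytes and smooth muscle) 924, 1315 and 219, and fibroblast-like cells 70, 264 and 678. Type 1 pneumocyte-like (AT1-like) cells numbered 108, 238 and 49 and airway-like cells 173, 142 and 1. The 5 leukocyte markers summed to 1.21, 4.09 and 5.12 CPM over kept cells of the libraries in that order. Classes or subgroups under 50 cells are given as counts and are not compared.

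**Figure D1:**
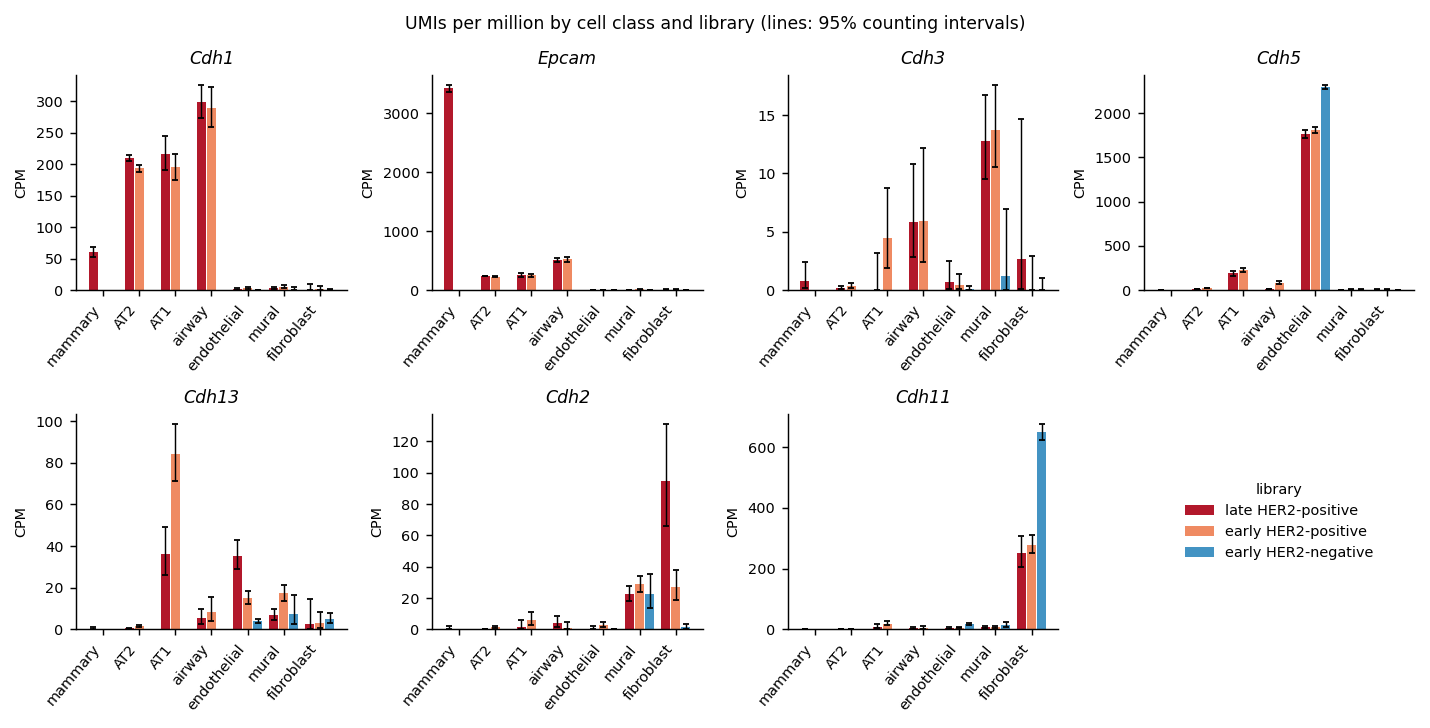
CPM (linear axes from 0) of the 7 genes in each cell class, with bars for the late HER2-positive, early HER2-positive and early HER2-negative libraries and lines for 95% counting intervals; classes under 50 cells are not drawn. Epcam reached 3422 CPM in mammary-like cells against 238 CPM in late AT2-like cells, and Cdh5 stood at 1760 to 2296 CPM in endothelial-like cells.

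Epcam was the member with the highest ratio of mammary-like over AT2-like cells, and Cdh1 went the other way. In the late HER2-positive library Epcam stood at 3422 CPM (interval 3363 to 3483, 12658 UMIs) in the 161 mammary-like cells. It stood at 238 CPM (233 to 243) in AT2-like, 255 CPM (227 to 286) in AT1-like and 504 CPM (471 to 539) in airway-like cells. The ratio of mammary-like over AT2-like cells was 14.4 (14.0 to 14.8), that over airway-like cells was 6.79 (6.34 to 7.28), and the intervals of the whole AT1-like and AT2-like classes overlapped. Without the AT1-like cells that also met the airway or endothelial gate, AT1-like over AT2-like ratios were 1.33 for Epcam (1.14 to 1.54) and 1.54 for Cdh1 (1.32 to 1.78). Cdh1 stood at 59.8 CPM (52.1 to 68.2) in mammary-like cells, against 209.6 CPM (205 to 214) in AT2-like, 216 CPM (190 to 245) in AT1-like and 299 CPM (273 to 326) in airway-like cells. Mammary-like cells therefore had 0.285 times the Cdh1 level of AT2-like cells (0.248 to 0.326) and 0.200 times that of airway-like cells (0.170 to 0.235).

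Single cells showed the same order. Each of the 161 mammary-like cells had Epcam UMIs, between 3 and 309 per cell with a median of 76, and the level in a cell ran from 668 to 8009 CPM with a median of 3395 CPM. In AT2-like cells the median was 206 CPM and the highest cell was at 2436 CPM, so the ranges met but the medians lay far apart. For Cdh1 the median cell had 52.7 CPM in the mammary-like class and 182 CPM in the AT2-like class. A Cdh1 UMI was found in 113 of 161 mammary-like cells (70.2%) at a median depth of 22179 UMIs and in 82.0% of AT2-like cells at a median of 8837 UMIs. After each cell was thinned to 1000 UMIs, these shares were 4.35% and 19.1%, and the shares with an Epcam UMI were 97.5% and 20.7%. Endothelial-like cells of the late library, which should lack both genes, had a Cdh1 UMI in 0.844% and an Epcam UMI in 2.74% of cells at a median depth of 5399 UMIs.

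**Figure D2:**
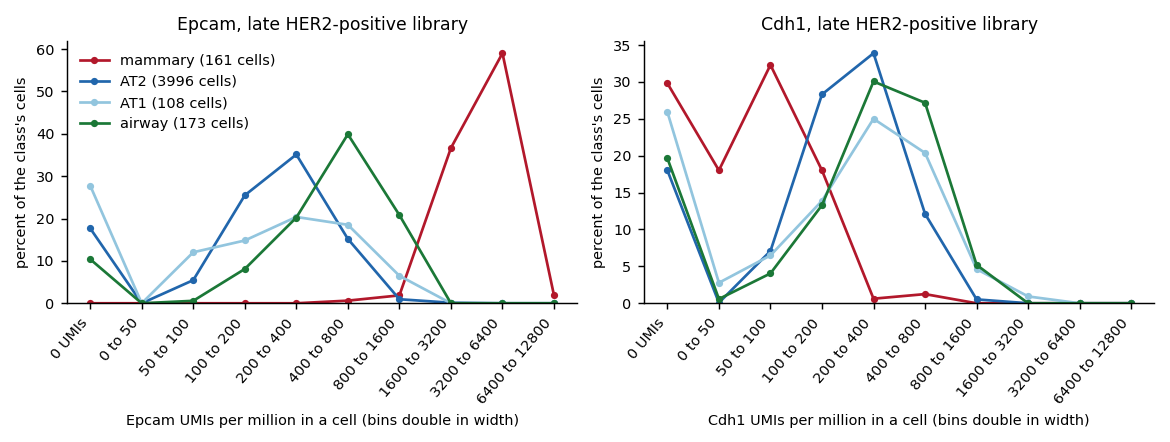
Percent of the cells of a class (y axis) by the level of Epcam (left) and Cdh1 (right) in a single cell, in bins of CPM that double in width, for mammary-like, AT2-like, AT1-like and airway-like cells of the late HER2-positive library. Most mammary-like cells, 95 of 161, fell in the Epcam bin from 3200 to 6400 CPM, whereas the median AT2-like cell was at 206 CPM.

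Among mammary-like cells, the 36 (22.4%) with at least 2 UMIs of the proliferation genes Mki67 or Top2a held 3807 of the 12658 Epcam UMIs and 71 of the 221 Cdh1 UMIs. Mammary-like cells supplied 53.2% of all Epcam UMIs of late HER2-positive cells, AT2-like cells 36.6%, and cells that met no class gate 5.28%. Some of the cells without a class resembled the mammary-like ones: 20 of them, with Csn3 and Wfdc18 at 0.1 to 1% of their UMIs, held 1038 Epcam UMIs, 114 Gata3 UMIs and 293 Trps1 UMIs. Just inside the gate, the 23 mammary-like cells at 1 to 2% held 1444 Epcam UMIs. Erbb2, the mouse gene of HER2, under which transcripts of the transgene may also have been counted, stood at 307 CPM in mammary-like and 16.2 CPM in AT2-like cells of the late library.

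In epithelial-like classes, ratios of late over early HER2-positive cells lay between 0.970 and 1.11 for both Cdh1 and Epcam over whole classes. In AT2-like cells Cdh1 stood at 209.6 CPM in the late library and 193 CPM in the early one (ratio 1.09, 1.05 to 1.12), and Epcam at 238 CPM in the late and 229 CPM in the early library (1.04, 1.01 to 1.07). In airway-like cells the ratios were 1.03 for Cdh1 (0.898 to 1.19) and 0.970 for Epcam (0.873 to 1.08). In AT1-like cells they were 1.11 for Cdh1 (0.939 to 1.31) and 1.02 for Epcam (0.875 to 1.18). In AT1-like cells that met neither the airway nor the endothelial gate they were 1.37 for Cdh1 (1.13 to 1.66), an interval that leaves out 1, and 1.10 for Epcam (0.914 to 1.32). This did not hold for other subsets. In the 67 late and 133 early AT1-like cells that met no other gate, Cdh1 was at 1.08 (0.874 to 1.33) and Epcam at 0.915 (0.749 to 1.12). Without only the cells that met the endothelial gate, Cdh1 was at 0.959 (0.806 to 1.14). Under other settings the AT1-like Cdh1 ratio ranged from 0.946, without the highest doublet scores, to 1.45, with trimmed-mean scaling. The 46 AT2-like cells of the early HER2-negative library held 67 Cdh1 and 96 Epcam UMIs, and its 49 AT1-like cells 96 Cdh1 and 75 Epcam UMIs.

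The airway-like class divided by Cdh1. Cells with Foxj1, the regulator of motile cilia, beside the club cell gene Cyp2f2 numbered 120 in the late and 81 in the early HER2-positive library, and cells with Cyp2f2 alone numbered 53 and 60. Cdh1 stood at 405 and 421 CPM in the cells with Foxj1, against 86.4 and 123 CPM in those without, ratios of 4.69 (3.49 to 6.43) in the late and 3.42 (2.59 to 4.56) in the early library. Epcam stood at 632 and 666 CPM in the cells with Foxj1, against 248 and 333 CPM in those without. Cdh3 and Cdh13 showed the opposite: the Foxj1 cells held 0 and 1 Cdh3 UMIs and 0 Cdh13 UMIs in both libraries, and the cells without Foxj1 held 10 and 6 Cdh3 UMIs and 9 and 10 Cdh13 UMIs.

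Cdh3 was sparse in epithelial-like classes and lay mostly in mural-like cells of the HER2-positive libraries. Those cells held 68.9% of the 74 Cdh3 UMIs of the late and 68.1% of the 91 of the early HER2-positive library. In the late library 34 of the 51 mural-like UMIs, and in the early one 47 of the 62, were in smooth muscle-like cells. Smooth muscle-like cells (Myh11 without the pericyte genes Higd1b and Cox4i2) had 37.2 CPM of Cdh3 in the late and 30.5 CPM in the early HER2-positive library, against 5.52 and 5.08 CPM in pericyte-like cells. The ratios of smooth muscle-like over pericyte-like cells were 6.75 (3.67 to 12.9) and 6.0 (3.30 to 11.6). The early HER2-negative library held 2 Cdh3 UMIs in all, 1 of them in its 219 mural-like cells, which gave an early HER2-positive over early HER2-negative ratio of 11 with an interval of 1.90 to 440. In mammary-like cells 3 Cdh3 UMIs were counted, against 7 in late AT2-like cells.

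Cdh5 followed the endothelial-like class in all 3 libraries. It stood at 1760 CPM (1712 to 1809) in late HER2-positive, 1806 CPM (1773 to 1840) in early HER2-positive and 2296 CPM (2273 to 2318) in early HER2-negative endothelial-like cells, and 97.5%, 96.3% and 98.5% of these cells had a UMI. Thinned to 1000 UMIs per cell, the shares were 77.4%, 79.7% and 87.7%. The late over early HER2-positive ratio was 0.974 (0.943 to 1.01), so its interval included 1. The early HER2-positive over early HER2-negative ratio was 0.787 (0.771 to 0.803). Mural-like cells, which should lack Cdh5, stood at 2.50, 6.86 and 2.50 CPM in the same library order.

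Within the endothelial-like class, Cdh5 was lower in arterial-like and venous-like cells than in the rest. Arterial-like cells (Gja5, Bmx) had 1253, 1165 and 1584 CPM in the late HER2-positive, early HER2-positive and early HER2-negative libraries, and venous-like cells (Vwf, Slc6a2) 1248, 1190 and 1423 CPM. Aerocyte-like cells (Car4, Ednrb, the gas-exchange capillary cells) had 2256, 2147 and 2569 CPM, and the other endothelial-like cells, which met no subgroup gate, 1989, 1917 and 2383 CPM. Arterial-like over other endothelial-like cells gave ratios of 0.630, 0.608 and 0.665 in the same library order, and in each library the arterial-like and venous-like levels lay below those of the aerocyte-like and other cells. In each subgroup early HER2-positive cells were lower than early HER2-negative cells, with ratios of 0.736 (arterial-like), 0.836 (venous-like), 0.836 (aerocyte-like) and 0.804 (other).

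Cdh13 showed nearly the reverse pattern: it was concentrated in arterial-like and venous-like cells. Arterial-like cells had 105, 96.6 and 43.6 CPM of Cdh13 in the late HER2-positive, early HER2-positive and early HER2-negative libraries, venous-like cells 56.1, 29.8 and 16.1 CPM, aerocyte-like cells 0, 0.687 and 1.11 CPM, and the other endothelial-like cells 3.13, 2.62 and 1.20 CPM. Over the whole endothelial-like class Cdh13 stood at 35.3 CPM in late HER2-positive, 15.1 CPM in early HER2-positive and 3.96 CPM in early HER2-negative cells. The late over early HER2-positive ratio was 2.33 (1.75 to 3.12), and the early HER2-positive over early HER2-negative ratio was 3.82 (2.77 to 5.28). Without arterial-like and venous-like cells that second ratio was 1.73 (0.715 to 3.96), an interval that includes 1. The makeup of the class moved with these values: arterial-like cells were 105 of 474 (22.2%), 120 of 1496 (8.02%) and 126 of 5169 (2.44%) endothelial-like cells. The arterial gate was a fixed count of 2 UMIs, and the median depth of endothelial-like cells was 5399, 3748 and 3042 UMIs. The part of depth in these shares was not tested. Within arterial-like cells the late over early HER2-positive ratio was 1.09 (0.773 to 1.53), and without arterial-like and venous-like cells it was 1.07 (0.244 to 3.70). Early HER2-positive over early HER2-negative arterial-like cells still differed in Cdh13, by 2.22 (1.38 to 3.65), and 16 of the 126 early HER2-negative arterial-like cells also met the fibroblast gate. Without such cells that ratio was 1.70 (1.06 to 2.81).

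**Figure D3:**
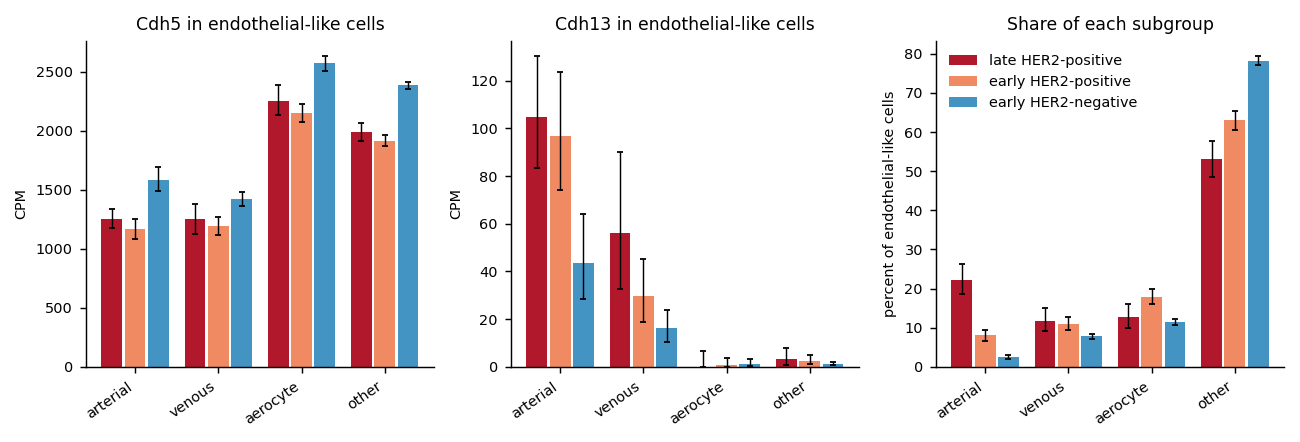
CPM of Cdh5 (left) and Cdh13 (middle) in arterial-like, venous-like, aerocyte-like and other endothelial-like cells, and each subgroup's percent of endothelial-like cells (right), for the late HER2-positive, early HER2-positive and early HER2-negative libraries, with lines for 95% counting intervals. Cdh13 lay in arterial-like and venous-like cells, and the arterial-like share was 22.2%, 8.02% and 2.44% in that library order.

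Of the 6 members with 10 or more endothelial UMIs summed, 2 were at least 1.5-fold higher (Cdh13 and Epcam) and 2 lower (Cdh1 and Cdh2) in late than in early HER2-positive endothelial-like cells, where 16.8% of all genes passed that fold in either direction. Epcam rested there on 13 late and 14 early UMIs, Cdh1 on 5 late and 18 early UMIs, and Cdh2 on 1 late and 18 early UMIs. In early HER2-positive over early HER2-negative endothelial-like cells, 4 of 6 members were at least 1.5-fold higher and 1, Cdh11, was lower, while 18.8% of all genes passed the fold (11.4% higher and 7.41% lower). The higher members were Cdh13 together with Cdh1, Epcam and Cdh2, which rested on 18, 14 and 18 early HER2-positive UMIs and on 3, 4 and 1 early HER2-negative UMIs. AT2-like cells were 51.7% of early HER2-positive and 0.717% of early HER2-negative cells, and Cdh1 in barcodes of 1 to 100 UMIs, which hold free RNA, was at 102 and 14.7 CPM in those libraries. The part of free RNA in the low epithelial counts of endothelial-like cells was not tested.

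Cdh11 was lower in early HER2-positive endothelial-like cells, at 5.57 CPM against 17.8 CPM in early HER2-negative ones (ratio 0.313, 0.214 to 0.445). In the early HER2-negative library 262 of its 310 endothelial UMIs lay in 80 cells that also met the fibroblast gate. Without the cells that met more than 1 gate, the ratio was 0.971. Without only the cells that met the fibroblast gate it was 1.29 (0.740 to 2.17), an interval that includes 1.

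Outside the vessels, Cdh13 was found in AT1-like cells, with 36.3 CPM in the late and 84.1 CPM in the early HER2-positive library (ratio 0.431, 0.299 to 0.611). Of the AT1-like cells, 23 of 108 late and 13 of 238 early HER2-positive cells also met the airway gate, and the club cell gene Scgb1a1 stood at 199437 CPM in late against 11882 CPM in early AT1-like cells. In AT1-like cells that met neither the airway nor the endothelial gate, Cdh13 stood at 74.3 CPM in 75 late cells and 117 CPM in 176 early cells (0.634, 0.438 to 0.901). The 42 such cells of the early HER2-negative library held 43 Cdh13 UMIs. By the 1.5-fold rule 0 of 6 members were higher and 3 lower in late AT1-like cells (Cdh13, Cdh11 and Cdh2), where 39.5% of all genes passed the fold. Intervals included 1 for Cdh11 (11 late and 34 early UMIs) and Cdh2 (2 late and 11 early UMIs).

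Cdh5 counts in pneumocyte-like classes lay in few cells. In AT1-like cells 219 of 219 late HER2-positive, 399 of 406 early HER2-positive and 111 of 117 early HER2-negative Cdh5 UMIs were in the 11, 54 and 7 cells that also met the endothelial gate. In AT2-like cells the level was 9.73 CPM in the late and 25.7 CPM in the early HER2-positive library (0.379, 0.333 to 0.431), with 310 of 356 late UMIs in 40 cells and 672 of 743 early UMIs in 119 cells that met the endothelial gate. Without these cells it was 1.28 CPM in the late and 2.56 CPM in the early library. By the 1.5-fold rule 0 of 7 members were higher and 5 lower in late AT2-like cells, all but Cdh1 and Epcam, where 18.9% of all genes passed. The 5 lower members stood at 0.137 to 9.73 CPM in late AT2-like cells. Of these, Cdh3 rested on 7 late and 10 early UMIs, and its interval included 1. In late airway-like cells 0 of 6 members were higher and 2 lower (Cdh5 and Cdh13), where 24.3% of all genes passed. Cdh13 rested there on 9 late and 10 early UMIs, and its interval included 1. Cdh5 stood at 11.7 CPM in late and 83.5 CPM in early airway-like cells, of which 3 of 173 and 11 of 142 met the endothelial gate.

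**Figure D4:**
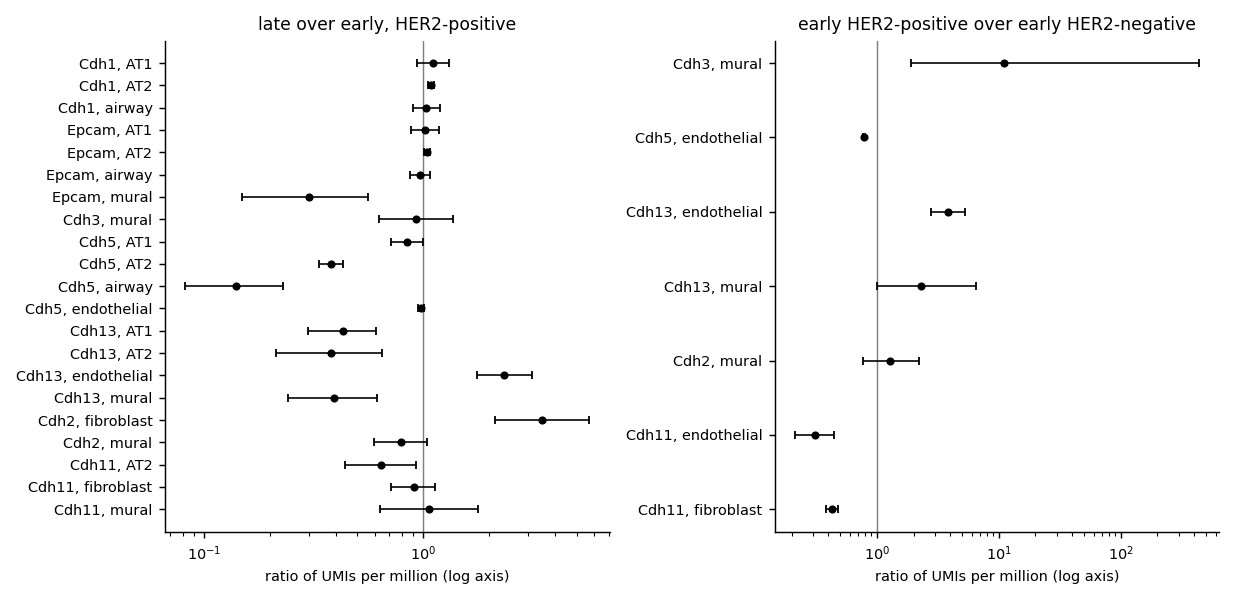
Ratio of CPM (log axis; points with 95% counting intervals) of each gene and class for late over early HER2-positive cells (left) and early HER2-positive over early HER2-negative cells (right), for pairs with at least 60 UMIs summed. Cdh1 and Epcam lay near 1 in AT2-like cells (1.09 and 1.04), whereas Cdh13 was at 2.33 in endothelial-like and 0.391 in mural-like cells on the left.

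Cdh2 (chr18:16588877-16809246 of GRCm38/mm10, minus strand) was found in the pericyte-like cells of every library. It stood at 27.9 CPM (22.3 to 34.5) in the late HER2-positive, 37.2 CPM (30.6 to 44.9) in the early HER2-positive and 30.7 CPM (18.2 to 48.5) in the early HER2-negative library, and these intervals overlapped. Smooth muscle-like cells had 5.47 CPM in the late and 11.7 CPM in the early HER2-positive library, so smooth muscle-like over pericyte-like ratios were 0.196 (0.0621 to 0.476) and 0.314 (0.179 to 0.519). Cdh13 and Cdh11 were higher in smooth muscle-like cells, as Cdh3 was. Cdh13 had 23.0 and 38.9 CPM in smooth muscle-like cells of the late and early HER2-positive libraries, against 1.95 and 6.09 CPM in pericyte-like cells, ratios of 11.8 (4.61 to 35.8) and 6.39 (3.72 to 11.5). Cdh11 had 22 late and 20 early UMIs in smooth muscle-like cells, against 10 and 13 in pericyte-like cells, ratios of 7.42 (3.37 to 17.6) and 2.95 (1.40 to 6.45). The 46 smooth muscle-like cells of the early HER2-negative library held 0 Cdh2, 1 Cdh3, 4 Cdh13 and 1 Cdh11 UMIs.

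By the 1.5-fold rule 0 of 7 members were higher and 4 lower in late than in early HER2-positive mural-like cells (Cdh13, Cdh5, Epcam and Cdh1), where 17.4% of all genes passed. Cdh1 rested there on 12 late and 23 early UMIs, and its interval included 1. Cdh13 stood at 6.75 CPM in late and 17.3 CPM in early mural-like cells (0.391, 0.242 to 0.612), while smooth muscle-like cells were 15.4% of late and 26.6% of early mural-like cells. Within smooth muscle-like cells the Cdh13 ratio was 0.590 (0.341 to 0.985) and within pericyte-like cells 0.319 (0.104 to 0.840). Of the 49 Epcam UMIs in early mural-like cells, 31 were in 1 cell. Between early HER2-positive and early HER2-negative mural-like cells 5 of 7 members were higher (Cdh1, Cdh3, Epcam, Cdh5 and Cdh13) and 1, Cdh11, lower, where 26.0% of all genes passed the fold. Intervals included 1 for Cdh5 (31 early HER2-positive and 2 early HER2-negative UMIs) and Cdh11 (34 and 11 UMIs). Cdh1 and Epcam had 0 UMIs in the 219 early HER2-negative mural-like cells, a floor of 3 counts, and 23 and 49 UMIs in the 1315 early HER2-positive cells.

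**Figure D5:**
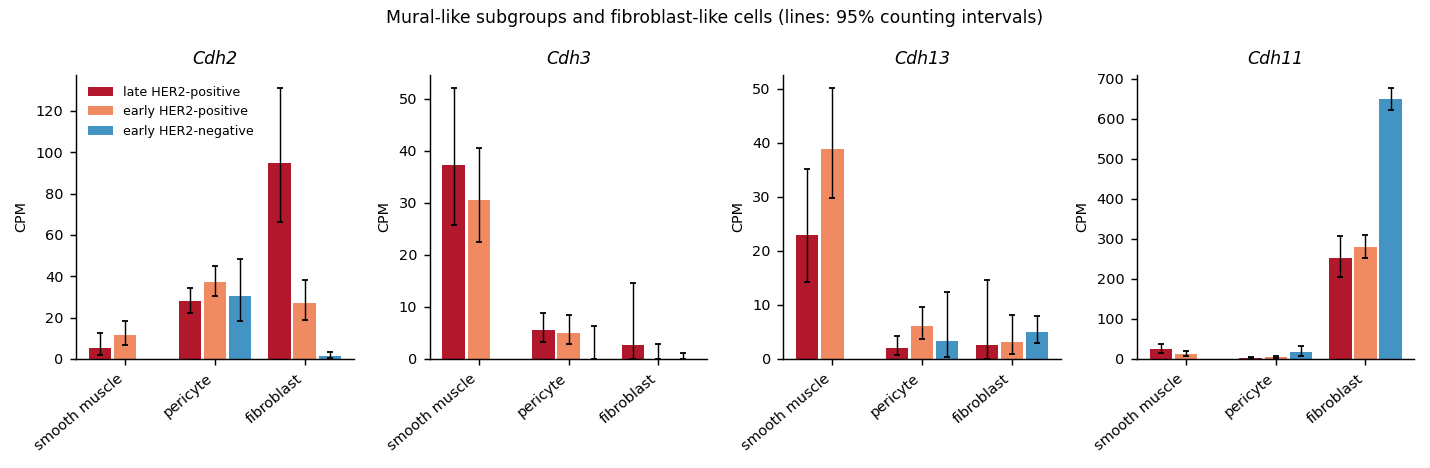
CPM (linear axes from 0) of Cdh2, Cdh3, Cdh13 and Cdh11 in smooth muscle-like, pericyte-like and fibroblast-like cells of the late HER2-positive, early HER2-positive and early HER2-negative libraries, with lines for 95% counting intervals; the 46 early HER2-negative smooth muscle-like cells are not drawn. In the HER2-positive libraries Cdh3 and Cdh13 were higher in smooth muscle-like than in pericyte-like cells, and Cdh2 was higher in pericyte-like than in smooth muscle-like cells. Late fibroblast-like cells had more Cdh2 (94.6 CPM) than late pericyte-like cells (27.9 CPM). Cdh11 was highest in fibroblast-like cells, where it reached 649 CPM in the early HER2-negative library.

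Cdh11 marked fibroblast-like cells, at 252 CPM (204 to 308) in the late HER2-positive, 280 CPM (251 to 310) in the early HER2-positive and 649 CPM (622 to 676) in the early HER2-negative library. The late over early HER2-positive ratio was 0.903 (0.713 to 1.13), and early HER2-positive cells stood at 0.431 times the early HER2-negative level (0.384 to 0.483). A Cdh11 UMI was found in 45.7%, 50.8% and 78.2% of these cells, and in 24.3%, 18.9% and 40.7% after thinning to 1000 UMIs per cell. Endothelial-like cells, as a class that should lack the gene, had one in 1.27%, 1.80% and 1.90% of cells.

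Cdh2 differed between the fibroblast-like cells of the 3 libraries. It stood at 94.6 CPM in late HER2-positive, 27.2 CPM in early HER2-positive and 1.45 CPM in early HER2-negative fibroblast-like cells, on 36, 34 and 5 UMIs. The late over early HER2-positive ratio was 3.47 (2.11 to 5.72), and the early HER2-positive over early HER2-negative ratio was 18.8 (7.32 to 61.6). These UMIs lay in 17 of 70, 23 of 264 and 3 of 678 cells in the same library order. Cdh19, a cadherin of Schwann cells and their precursors, moved with Cdh2: it stood at 263 CPM in late HER2-positive, 120 CPM in early HER2-positive and 3.47 CPM in early HER2-negative fibroblast-like cells. The part of cells with Cdh19 in the Cdh2 ratios was not tested.

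By the 1.5-fold rule 1 of 3 members, Cdh2, was higher and 0 lower in late than in early HER2-positive fibroblast-like cells, where 33.2% of all genes passed. Between early HER2-positive and early HER2-negative fibroblast-like cells 2 of 5 were higher (Cdh2 and Epcam) and 3 lower (Cdh11, Cdh5 and Cdh13), where 31.2% passed. Epcam rested there on 10 early HER2-positive and 9 early HER2-negative UMIs. Intervals included 1 for Cdh5 (3 and 13 UMIs) and Cdh13 (4 and 17 UMIs). In AT2-like cells Cdh2 had 5 late and 47 early HER2-positive UMIs, a ratio of 0.0842 (0.0261 to 0.211), at levels of 0.137 and 1.62 CPM.

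The partners of the cadherins were compared between mammary-like and AT2-like cells of the late library, where 69.2% of all genes passed 1.5-fold (45.2% higher and 24.0% lower) and the median log2 ratio of all genes was 0.48. Of 6 members, 2 were higher (Epcam and Cdh3) and 4 lower (Cdh1, Cdh5, Cdh11 and Cdh13). Intervals included 1 for Cdh3 (3 mammary-like against 7 AT2-like UMIs), Cdh11 (3 against 55) and Cdh13 (0 against 21). Of 17 catenin and adherens junction genes, 3 were higher and 9 lower, with a median log2 ratio of -0.60. Jup (plakoglobin) had the highest ratio of them, at 114 CPM in mammary-like and 43.1 CPM in AT2-like cells (2.65, 2.37 to 2.95), followed by the nectin gene Pvrl4 (2.03) and the junction adaptor gene Plekha7 (1.75). Ctnnb1 (beta-catenin) stood at 204 CPM in mammary-like and 514 CPM in AT2-like cells (0.396, 0.368 to 0.426), and Vcl (vinculin, 0.399) and the nectin genes Pvrl1 (0.313) and Pvrl3 (0.218) were lower as well.

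Of 9 Epcam-associated genes, 5 were higher and 3 lower in mammary-like cells, with a median log2 ratio of 0.60. Of all genes there, 45.2% were higher and 24.0% lower, with a median of 0.48, and the same shares apply to the lists below. Trimmed-mean scaling lowers every ratio of this comparison by 0.55 on the log2 scale. The tetraspanin genes Tspan8 (810 CPM in mammary-like against 92 CPM in AT2-like cells, 8.80-fold) and Cd9 (1916 against 508 CPM, 3.78-fold) were higher, as were the protease inhibitor gene Spint2 (793 against 299.96 CPM, 2.64-fold) and the membrane protease gene St14 (2.53-fold). Cd44 (0.423) and the protease gene Prss8 (0.496) were lower. Of 9 genes of proteases that cut cadherins or Epcam, 6 were higher and 1 lower, with a median of 0.80. The gamma-secretase genes Aph1a (2.98-fold), Ncstn (2.98-fold) and Psenen (1.74-fold) were higher, and Psen2 was lower (0.597). Of 13 endothelial junction genes, 3 were higher and 7 lower, with a median of -0.67.

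The partners of Cdh5 were compared in endothelial-like cells. Of 13 endothelial junction genes, 0 passed 1.5-fold between early HER2-positive and early HER2-negative cells, where 18.8% of all genes did. Between late and early HER2-positive cells, where 16.8% of all genes passed, 1 did: the VEGF receptor gene Kdr stood at 496 CPM in late and 810 CPM in early cells (0.612, 0.577 to 0.649). Of 17 catenin and adherens junction genes, 7 were higher and 1 lower in early HER2-positive over early HER2-negative endothelial-like cells, with a median log2 ratio of 0.40 against 0.03 for all genes; 11.4% of all genes were higher and 7.41% lower there. Ctnnb1 stood at 377 CPM in early HER2-positive and 248 CPM in early HER2-negative cells (1.52, 1.45 to 1.60), and the p120-catenin family gene Pkp4 at 101 and 51.4 CPM in those libraries (1.97, 1.78 to 2.18). The nectin-like gene Pvr was lower (0.574). Of endothelial-like cells, 141 of 1496 early HER2-positive and 35 of 5169 early HER2-negative ones also met the mural gate. Arterial-like cells were 8.02% and 2.44% of the class in that order, and AT2-like cells were 51.7% and 0.717% of the libraries. The part of makeup, mixed cells or free RNA in these ratios was not tested. In AT2-like cells, where 18.9% of all genes passed the fold, 7 of 13 endothelial junction genes were lower in late than in early HER2-positive cells, among them Pecam1 (8.85 against 24.2 CPM, 0.366) and Ptprb (11.4 against 38.8 CPM, 0.293), and they moved with Cdh5 and with the share of AT2-like cells that met the endothelial gate, 1.0% in late and 3.02% in early cells.

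Among the 17 other cadherin symbols of the Cdh family, Cdh7 and Cdh18 had 0 UMIs in kept cells of any library. Cdh19 was counted in mammary-like cells: 183 UMIs lay in 100 of the 161 cells (49.5 CPM), against 0.437 CPM in late AT2-like cells, a ratio of 113 (67.8 to 202). Sox10 stood at 167 CPM in mammary-like and 0.738 CPM in AT2-like cells of the late library. Cdh16 (kidney-specific cadherin) was counted in AT2-like cells, at 42.1 CPM in the late and 47.3 CPM in the early HER2-positive library, in 1123 of 3996 and 1026 of 3939 cells, and at 0.811 CPM in mammary-like cells. Cdh4 (R-cadherin) stood at 12.8, 17.7 and 31.3 CPM in mural-like cells and at 21.0, 35.2 and 18.2 CPM in fibroblast-like cells of the late HER2-positive, early HER2-positive and early HER2-negative libraries.

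Across the 19 combinations of class and library with at least 50 cells, the genes whose log2(CPM + 1) was most like a member's were ranked by Pearson correlation among 6434 genes. The combinations share libraries and differ in depth, so the values are descriptions. Closest to Cdh1 were Cds1 (0.985), Myo5c (0.983) and Prr15l (0.982), and closest to Epcam were the keratin genes Krt18 (0.982) and Krt8 (0.969) and Rab25 (0.966), while Cdh1 and Epcam were correlated at 0.887 with each other. Closest to Cdh5 were Egfl7 (0.991), Cyyr1 (0.989) and Rasip1 (0.988), and closest to Cdh11 were Amph (0.978), Col13a1 (0.977) and Adra1a (0.973). The closest genes were less alike for Cdh3 (Calm3 at 0.833, D1Ertd622e at 0.793 and Isyna1 at 0.790) and for Cdh13 (Wnk1 at 0.809, Rab12 at 0.808 and Emp2 at 0.803).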

How the data were processed

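The 3 files hold deposited UMI counts per gene and barcode without any normalization. Per the file headers, software of version 3.1.0 wrote them, and mm10 is the build named in the submitters' processing notes. Per the labels' protocols the chemistry was Chromium 3', version 3. No aligner or annotation release is stated. Each matrix lists 6794880 barcodes, empty droplets included. Barcodes with at least 1000 UMIs and under 25% mitochondrial UMIs were kept. Classes were assigned by first match: mammary Csn3+Wfdc18 at 1% or more of UMIs, AT2 Sftpc at 10% or more, AT1 Ager+Rtkn2 at 4 UMIs or more, airway Cyp2f2+Foxj1 at 3 or more, and endothelial Cldn5+Cd93, mural Higd1b+Cox4i2+Myh11 and fibroblast Pdgfra+Col1a2 at 2 or more. UMIs were summed per class and library and divided by the class total (CPM), with exact Poisson intervals for levels, exact conditional intervals for ratios and Clopper-Pearson intervals for shares. With 1 library per group no count model was run. A gene was counted with at least 10 UMIs over both groups and called at 1.5-fold.

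Doublets were not removed, because the automatic call of Scrublet (scanpy 1.11.5) marked libraries unevenly: 52 of 6012 late HER2-positive, 392 of 7622 early HER2-positive and 2 of 6416 early HER2-negative cells. Leaving out the highest scores was an alternative. The calculation of ratios was checked on simulated counts with counting error only. That check does not cover differences between cells or libraries, or in the makeup of a class. The members, lists, subgroups and classes were chosen with earlier results of these data known. All 7 members are named, with partner-list genes past 1.5-fold whose interval leaves out 1 (up to 6 per list and comparison) and the 3 most alike genes per member. A few genes that this rule selects are not reported here. Python 3.11.15, scipy 1.17.1 and, for trimmed-mean scaling, edgeR 4.0.16 in R 4.3.3 were used.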

Additional observations from a re-analysis of the deposited data

Results flagged for a closer look

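Cdh13 moved in opposite directions between late and early HER2-positive cells of different classes. The ratio of late over early cells was 2.33 in endothelial-like cells, and 0.378 in AT2-like, 0.431 in AT1-like and 0.391 in mural-like cells. The AT2-like ratio rests on 21 late and 44 early UMIs, at 0.574 and 1.52 CPM. In AT1-like cells that met neither the airway nor the endothelial gate the ratio was 0.634. For mural-like cells the ratio was 0.590 within smooth muscle-like and 0.319 within pericyte-like cells. The endothelial-like ratio was 1.09 within arterial-like cells and 1.07 without arterial-like and venous-like cells, and arterial-like cells were 22.2% of late and 8.02% of early endothelial-like cells. With 1 library on each side, the difference between these ratios was not tested.

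Cdh2 also moved in opposite directions. The ratio of late over early HER2-positive cells was 3.47 in fibroblast-like cells, and 0.0842 in AT2-like and 0.120 in endothelial-like cells, and this difference was not tested either. The AT2-like ratio rests on 5 late and 47 early UMIs and the endothelial-like one on 1 late and 18 early UMIs.

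Epcam stood at 2003 CPM in the 106 late HER2-positive cells that met no class gate and so entered no comparison. The UMIs lay in 33 of these cells. The 228 unmatched cells of the early HER2-positive library were at 131 CPM, with 28 of the 71 UMIs in 1 cell. The 254 unmatched cells of the early HER2-negative library were at 16.4 CPM.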

How the results depend on the processing

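No paired analysis was possible because each group holds 1 library. For the members, 21 ratios were recomputed under other settings, which gave 237 values: 211 stayed within the counting interval, 26 left it, and 0 ratios whose interval left out 1 changed direction. A value outside these 237 did: Cdh11 of early HER2-positive over early HER2-negative endothelial-like cells was 0.313. It was 1.29 (0.740 to 2.17) without the cells that met the fibroblast gate. With trimmed-mean scaling, which shifts mammary-like over AT2-like cells by 0.55 on the log2 scale, Epcam was at 9.84 and Cdh1 at 0.195 there, Cdh1 of late over early AT2-like cells at 1.16 and Cdh5 of late over early endothelial-like cells at 1.01, on the other side of 1 from its 0.974. Only 1 catenin and adherens junction gene was then higher in mammary-like cells, and at a 2-fold call 4 were lower. The cause of these shifts is the scaling or the fold itself. Leaving out cells that met 2 or more gates gave 14.8 for Epcam in mammary-like over AT2-like cells, 0.939 for late over early Cdh5 and 0.810 for early HER2-positive over early HER2-negative Cdh5. This setting took out most late AT2-like cells, 3481 of 3996, because 3422 of the 3996 also met the AT1 gate. It also took out 510 of 924 late mural-like cells, and these 510 met the fibroblast gate. Leaving out cells that met another gate, except the AT1 gate in AT2-like and the fibroblast gate in mural-like cells, was chosen after seeing the data; it gave 15.0 for Epcam, 1.04 for Cdh1 in AT2-like cells and the same values for Cdh5. Stricter gates gave 14.9 for Epcam and 0.763 for early HER2-positive over early HER2-negative Cdh5, equal weight per cell gave 15.0 for Epcam, and leaving out the highest Scrublet scores gave 0.806 for that Cdh5 ratio and 0.508 for Cdh11 in the same cells. Without arterial-like and venous-like cells, also chosen later, Cdh13 was at 1.73 in early HER2-positive over early HER2-negative endothelial-like cells. In fibroblast-like cells Cdh2 of early HER2-positive over early HER2-negative ranged from 8.73 (stricter gates) to 33.0 (equal weight per cell). Without cells that met 2 or more gates, late over early Cdh13 in mural-like cells was 0.247. Unless stated, the cause was not tested. Depth limits the low counts: Cdh3 had 2 UMIs in the early HER2-negative library.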
